A study of Homo sapiens with 12 samples.

Results

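The plasma cell program genes described here were XBP1, IRF4, PRDM1, JCHAIN, FCRLA, POU2AF1 and MZB1, 7 of 15612 genes listed for clone 1 and of 16848 listed for clone 2. They were found by gene symbol, and all 7 were listed in both clones. They were chosen by name, as regulators and products of late B cells and plasma cells, and by the direction of the authors' own resistant-over-sensitive fold changes. Those fold changes were not used here, and the levels below are a description with no test.

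RNA-seq was performed on RCH-ACV, an established human B-cell precursor ALL line that carries the pre-BCR, the receptor of immature B cells. The 12 libraries formed 4 groups of 3, namely dasatinib-sensitive cells of clone 1, dasatinib-resistant cells of clone 1, and the same pair for clone 2. Resistant cells had grown in rising concentrations of dasatinib, which blocks ABL and SRC kinases, to a maximum of 1 µM. Sensitive cells had grown in vehicle, 0.1% DMSO. Each clone was an independently generated subline pair, and its replicates were RNA isolations of the same subline at separate times. No value per library was used, because the deposited level of a gene was 1 mean per clone over its 3 sensitive and 3 resistant libraries, after the authors had divided the counts by size factors. From these means no SD, no p-value and no comparison of resistant with sensitive cells could be computed, and the authors' own comparison was set aside. Library depths are unknown. The sum of the means was 19108037 for clone 1 and 24561485 for clone 2, and the median gene had a mean of 406.2 and 442.3, respectively.

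Plasma cells are antibody-secreting cells that arise when a B cell switches off its identity factors and builds a large endoplasmic reticulum. IRF4 and PRDM1 (BLIMP-1) are transcription factors of that switch, XBP1 drives the secretory pathway, and POU2AF1 (OCA-B) is a coactivator of octamer-binding factors at immunoglobulin genes. JCHAIN encodes the joining chain of polymeric IgM and IgA, MZB1 is an endoplasmic reticulum cochaperone of antibody assembly, and FCRLA is an intracellular Fc receptor-like protein of B cells. A leukemia of B cell precursors sits far before this stage, although single genes of the program are also used by precursors and by activated B cells.

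The labelled cell type was checked against its markers. All 12 B cell precursor markers were listed in both clones, with a median mean normalized count of 3323 in clone 1 and 4000 in clone 2. RAG1, a recombinase of receptor genes, had means of 13087 and 12035. DNTT, the terminal transferase, had means of 10412 and 13027, and IGLL1, a surrogate light chain of the pre-BCR, 9233 and 12008. MME (CD10), the lowest of the list and singled out after its values were seen, had 67.7 and 67.0, above 26% and 29.3% of the genes. Of 6 T cell markers none was listed in clone 1 and 1 in clone 2, CD8A at a mean of 2.34. Of 6 myeloid markers 5 were listed, with medians of 11.0 and 17.1. CSF1R, a cytokine receptor, held most of their summed level at 614.5 and 767.6. CD33, a surface lectin, had 22.6 and 47.6, a log2 difference of 0.70, and LYZ, lysozyme, 11.0 and 17.1.

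The master regulators stood far apart from each other. XBP1 had a mean normalized count of 3383 in clone 1 and 4604 in clone 2, above 93.1% and 94.2% of the listed genes. IRF4 had 3270 and 4093, above 92.7% and 93% of the genes. PRDM1 had 7.13 and 7.84, above 7.86% and 13.5% of the genes. PRDM1 was thus near the bottom of both clones while its partner factors were near the top.

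**Figure D1:**
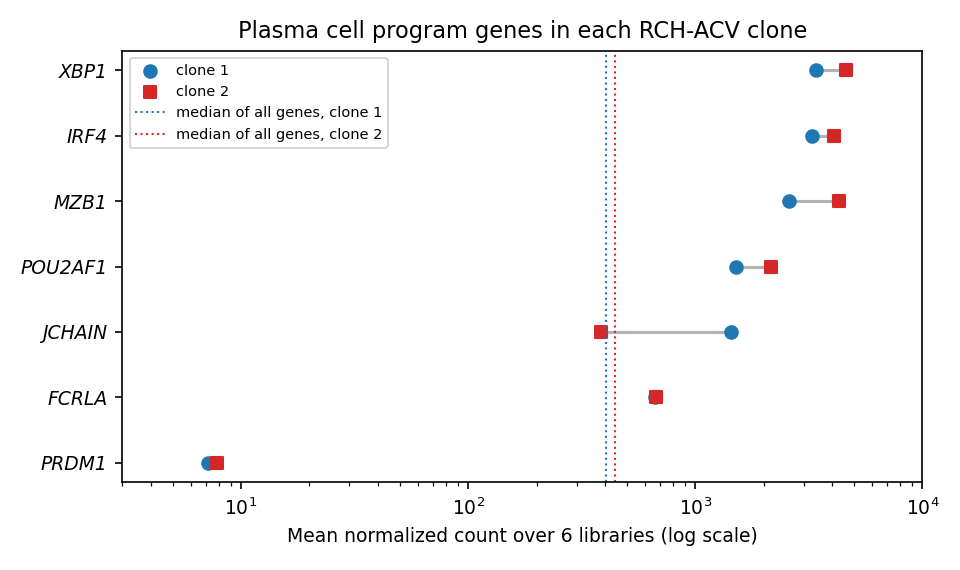
Mean normalized count of each gene over the 6 libraries of clone 1 (blue circles) and of clone 2 (red squares) on a log axis, with dotted lines at the median of all genes of each clone. PRDM1 sat at 7.13 and 7.84, far left of the medians of 406.2 and 442.3, and JCHAIN was the gene whose points lay farthest apart.

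Levels of different genes were compared per length of transcript, since longer transcripts gather more reads. Their longest protein-coding transcripts ran from 825 bases (MZB1) to 5331 bases (IRF4). Per 1000 bases, the IRF4 mean was 444.5-fold above that of PRDM1 in clone 1 and 505.7-fold in clone 2. BCL6, a germinal center repressor that opposes PRDM1, was 655.9-fold and 874.6-fold above PRDM1 on the same scale. All these folds divide by a PRDM1 mean of 7.13 or 7.84, near the floor, so their exact values are uncertain. BCL6 was among the B cell identity factors and was singled out after its values were seen.

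The pooling limits what either condition can have held. A mean over 3 sensitive and 3 resistant libraries, none below 0, allows the mean of either condition to be at most 2 times the pooled value and a single library at most 6 times. For PRDM1 the limit for a condition was therefore 14.3 in clone 1 and 15.7 in clone 2, and the limit for a library 42.8 and 47.0. In clone 1, 13.2% of the genes had a pooled mean below the condition limit, and in clone 2 18.4%. Set against the pooled means of all genes, PRDM1 was hence low in sensitive and in resistant cells alike, whatever their difference. In bulk RNA, a low level in all cells and expression in few cells cannot be told apart.

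XBP1 calls for a word on what the level counts. Its transcript is made active when the endonuclease ERN1 (IRE1) removes a short intron in the cytoplasm and RTCB rejoins the ends, so that a longer protein is read in another frame. In GENCODE release 29 the form that keeps this intron has a coding sequence of 783 bases, or 261 codons, and the form without it 1128 bases, or 376 codons. The stretch that tells them apart is shown because a mean per gene counts both forms together. The capitals mark 26 bases whose removal gives the shorter transcript, drawn at the leftmost placement that does so. They stand within 30 coding bases on either side, on the strand of the gene on chromosome 22:

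XBP1, unspliced form: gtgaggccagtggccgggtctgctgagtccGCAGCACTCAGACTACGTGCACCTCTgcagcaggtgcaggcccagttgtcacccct

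Since the bases at both ends repeat, a run beginning anywhere between coding bases 493 and 499 would give the same product. Comparing the forms therefore does not place the cut of the enzyme, and the capitals do not mark its site. How much of the XBP1 mean belonged to either form was not measured. The enzymes of the step were both listed. RTCB had means of 2450 and 3203, above 89.4% and 90.6% of the genes, whereas ERN1 had 70.7 and 91.4, above 26.4% and 31.8%. ERN1 was singled out after its values were seen.

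POU2AF1, the octamer coactivator, had a mean normalized count of 1512 in clone 1 and 2161 in clone 2. It stood above 81.1% and 84.3% of the genes. Its DNA-binding partners POU2F1 (OCT1) and POU2F2 (OCT2), chosen here after their values were seen, were both listed. Per 1000 bases of transcript, POU2F1 was 3.50-fold above POU2F2 in clone 1 and 1.88-fold in clone 2. POU2F2 is the octamer factor of mature B cells, and its mean was 201.7 and 448.8.

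The products of the program covered a wide range. MZB1 had a mean normalized count of 2585 in clone 1 and 4283 in clone 2, above 90.2% and 93.4% of the genes. FCRLA had 662.6 and 673.8, above 60.9% and 58.5%. JCHAIN had 1436 and 384.6, above 79.8% and 47.5%. MZB1 was near the top in both clones, FCRLA was somewhat above the middle, and JCHAIN went from well above the middle in clone 1 to just below it in clone 2.

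Ranked by mean per 1000 bases of transcript, the order in clone 1 was MZB1 (3133), XBP1 (1829), JCHAIN (998.7), IRF4 (613.4), POU2AF1 (459), FCRLA (280.5) and PRDM1 (1.38). The median over all genes with a known length was 141 in clone 1 and 158.2 in clone 2. In clone 2 the order was MZB1 (5192), XBP1 (2489), IRF4 (767.7), POU2AF1 (655.9), FCRLA (285.3), JCHAIN (267.5) and PRDM1 (1.52). The orders differed in the place of JCHAIN, which took place 3 in clone 1 and place 6 in clone 2. The other 6 genes kept 1 order in both clones on this scale. With no division by length, IRF4 took place 2 and MZB1 place 3 in clone 1, and the reverse in clone 2.

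**Figure D2:**
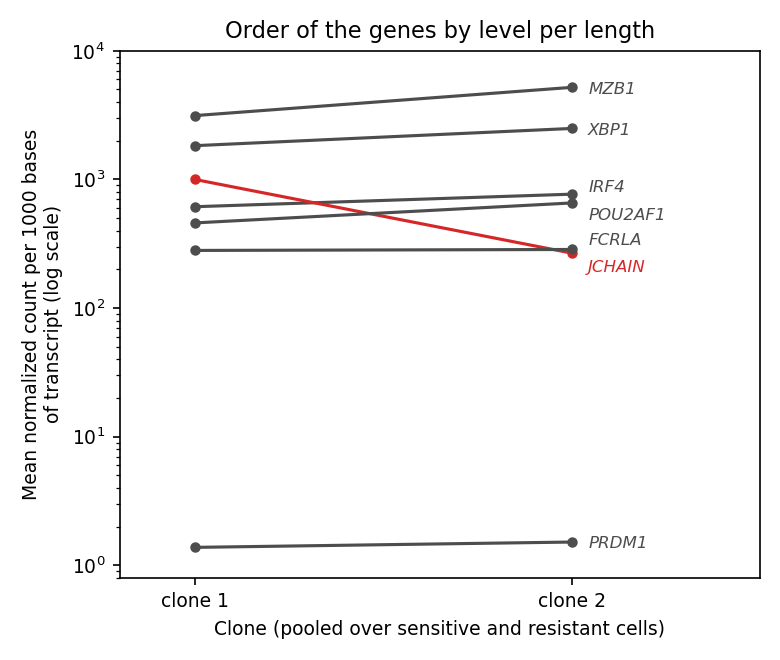
Mean normalized count per 1000 bases of transcript (log axis) of each gene in clone 1 and clone 2, with a line joining the values of a gene and JCHAIN in red. JCHAIN stood at 998.7 and 267.5 and crossed IRF4, POU2AF1 and FCRLA, whereas the other lines did not cross.

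Some neighbours in this order were close. FCRLA was 1.07-fold above JCHAIN and IRF4 1.17-fold above POU2AF1 in clone 2, and IRF4 was 1.34-fold above POU2AF1 in clone 1. The spread over libraries behind these steps is unknown, so neighbours this close were not ranked further. The step down to PRDM1 was of another size, 203.3-fold below FCRLA in clone 1 and 176.2-fold below JCHAIN in clone 2. Both folds divide by a PRDM1 mean near the floor, so their exact values are uncertain. With coding length in place of transcript length, JCHAIN and XBP1 were nearly equal in clone 1, too close to rank, and JCHAIN moved above FCRLA in clone 2.

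The clones were next compared gene by gene. The tables were normalized separately, and the 15582 genes listed in both were 1.29-fold higher in clone 2 at the median, a log2 shift of 0.37. Differences are given as log2 clone 2 over clone 1 relative to that shift. Of all shared genes 475, or 3.05%, lay beyond 2-fold, 214 higher and 261 lower in clone 2. The lower genes were 1.68% of the shared genes. Without the scaling, the genes beyond 2-fold were 547 higher and 102 lower, so that the higher genes made up 84.3% of them in place of 45.1%.

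Of the 7 plasma cell program genes 1 lay beyond 2-fold, against the background of 3.05%. It was JCHAIN, with a log2 difference of -2.27, or 4.82-fold lower in clone 2. The difference for MZB1 was 0.36, for POU2AF1 0.15 and for XBP1 0.08. The values for IRF4, PRDM1 and FCRLA were -0.04, -0.23 and -0.34, and 0.32, 0.14 and 0.02 without the scaling, which adds the same 0.37 to every gene. Their signs thus hold relative to the median gene. The median over the 7 genes was -0.04. The median size of the difference, regardless of sign, was 0.23 for these genes and 0.11 for all shared genes. The 0.23 is the value of PRDM1, a gene near the floor, whose difference was -0.11 with a pseudocount of 10. Whether the medians differ was not tested.

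**Figure D3:**
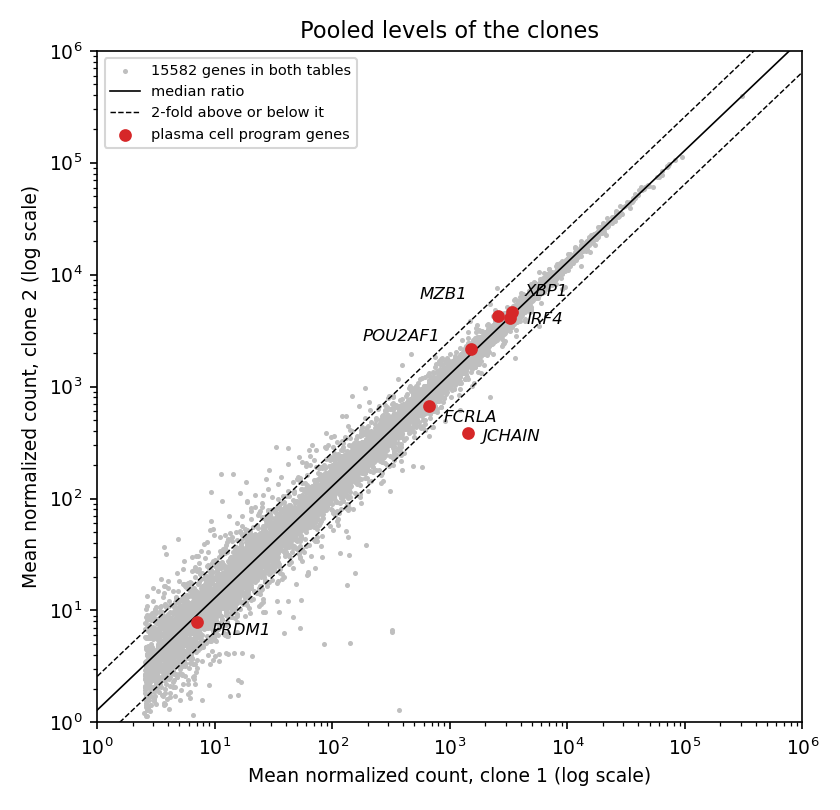
Mean normalized count in clone 2 against clone 1 (both axes logarithmic) for the 15582 shared genes in grey and the plasma cell program genes in red, with the median ratio as a solid line and 2-fold differences from it as dashed lines. JCHAIN lay below the lower dashed line at 1436 and 384.6, and the other 6 genes lay between the lines.

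Weakly expressed genes scatter more, so the difference for JCHAIN was set against genes with a mean of at least 50 in both clones. There were 11890 such genes, and the central 95% of their differences ran from -0.41 to 0.43. Of these 36 were more than 2-fold lower in clone 2, and none had a lower ratio than JCHAIN. Over all 15582 shared genes 22, or 0.141%, were lower than JCHAIN, each with a mean under 50 in at least 1 clone. Requiring 50 in clone 2 also leaves out any gene high in clone 1 and nearly absent in clone 2. That none was lower is therefore partly set by the limit itself. The lowest difference over all shared genes was -8.53. JCHAIN was ranked here because it was the most extreme of the plasma cell program genes. The other 6 plasma cell program genes were inside the central 95% range.

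Ratios within a clone do not depend on how the tables were scaled to each other. Per 1000 bases of transcript, MZB1 was 3.14-fold above JCHAIN in clone 1 and 19.4-fold in clone 2. POU2AF1 was 0.46 times the level of JCHAIN in clone 1 and 2.45 times in clone 2. In contrast, XBP1 was 2.98-fold above IRF4 in clone 1 and 3.24-fold in clone 2.

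The difference in JCHAIN can also be bounded for the conditions. In clone 2 the mean of either condition was at most 769.3, which is 596.6 on the scale of clone 1. In clone 1 the higher of the conditions had a mean of at least 1436. It was therefore at least 2.41-fold above the sensitive and the resistant cells of clone 2, or at least 1.87-fold without the scaling. Which condition carried the difference cannot be told apart here. Each clone was 1 pair of sublines, so the clone cannot be told apart from anything else in which the pairs differed.

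The start regions of JCHAIN and MZB1, the genes with the most negative and the most positive difference among the 7, are printed for their contrast in base composition. They are RefSeq promoters of GRCh38.p14, from 250 bases before to 50 after the start site, read along the gene. JCHAIN is at chr4:70666459-70666758 on the minus strand, and MZB1 at chr5:139389864-139390163 on the minus strand. The capitals in MZB1 mark a match to CCACGT, an XBP1-type core, and its overlapping match on the other strand. The marked letters read the same on both strands, so both matches are the same stretch, and binding by XBP1 was not tested:

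JCHAIN: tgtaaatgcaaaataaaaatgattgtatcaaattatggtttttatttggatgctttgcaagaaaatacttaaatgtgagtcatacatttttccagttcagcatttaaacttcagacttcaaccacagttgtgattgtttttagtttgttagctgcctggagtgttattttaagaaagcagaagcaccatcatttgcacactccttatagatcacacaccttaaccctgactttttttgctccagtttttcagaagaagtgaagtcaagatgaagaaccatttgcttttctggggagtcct

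MZB1: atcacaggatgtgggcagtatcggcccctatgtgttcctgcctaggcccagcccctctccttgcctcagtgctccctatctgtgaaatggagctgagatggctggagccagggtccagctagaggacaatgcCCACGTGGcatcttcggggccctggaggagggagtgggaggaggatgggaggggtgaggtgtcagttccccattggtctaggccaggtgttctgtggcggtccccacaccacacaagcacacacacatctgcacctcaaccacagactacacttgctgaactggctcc

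The JCHAIN region held 34.3% G and C bases and the MZB1 region 59.7%, where the median of all promoters was 58.7%. Of the 7 genes 6 had an entry, with 8 promoters in all. Besides CCACGT, 3 motifs were searched on both strands, namely the octamer ATTTGCAT, the ETS-IRF composite GGAANNGAA and the IRF-type GAAANNGAA, which PRDM1 can also bind. Over all 35116 promoters CCACGT was in 9.72%, ATTTGCAT in 1.77%, GGAANNGAA in 7.79% and GAAANNGAA in 8.11%.

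CCACGT was in 2 of the 8 promoters, that of MZB1 at -118 and -116 bases from the start site and 1 of PRDM1 at -77. GGAANNGAA was in the other PRDM1 promoter, at -12, and GAAANNGAA in that of FCRLA, at -92. ATTTGCAT was in 0 of them. XBP1, IRF4 and JCHAIN had no match in their windows. A match describes letters and not a bound site.

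Other lists were set around these genes. They give levels only, and how far a plasma cell state was present was not tested. Of 8 plasma cell surface markers 7 were listed in each clone, with a median mean of 128.1 in clone 1 and 196.2 in clone 2, below the medians of all genes. ITGA4, an integrin chain, had 9043 and 11016, CD38, an ectoenzyme, 1183 and 1223, and SDC1 (CD138), the classical plasma cell syndecan, 317.5 and 630.9. TNFRSF17 (BCMA), the survival receptor of plasma cells, had 5.41 and 4.41, with a log2 difference of -0.66. SLAMF7 was in neither table. The list thus ran from near the top of the tables to near the bottom.

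Of 6 immunoglobulin chain genes only IGLL5, a lambda-like chain, was found by symbol, with means of 1423 and 1167 and a log2 difference of -0.65. The other 5 symbols, IGHM, IGHD, IGHG1, IGHA1 and IGKC, were not among those listed, and their levels were not analysed here. Since the annotation applied is not known, a missing symbol does not show that a gene was not expressed. The Fc receptor-like relatives of FCRLA were weak. Of 7 such genes 4 were listed, with medians of 13.3 and 10.5. FCRLB had 63.5 and 123, FCRL5 19.1 and 14.9 with a difference of -0.73, and FCRL1 7.44 and 5.99. Per 1000 bases, FCRLA was 8.74-fold above FCRLB in clone 1 and 4.59-fold in clone 2.

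Of the 16 genes of the secretory pathway all were listed, with medians of 1995 and 2428 and a median place above 86% and 86.2% of the genes. EDEM1, which sends misfolded glycoproteins to degradation, had 17697 and 23247. The disulfide isomerase PDIA6 had 15228 and 20289, and the chaperone HSPA5 (BiP) 13995 and 18004. Their log2 differences between the clones ran from -0.16 to 0.31, the latter in HERPUD1, a stress-induced membrane protein, and 0 of 16 lay beyond 2-fold. The median difference of the list was 0.01, beside -2.27 for JCHAIN.

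**Figure D4:**
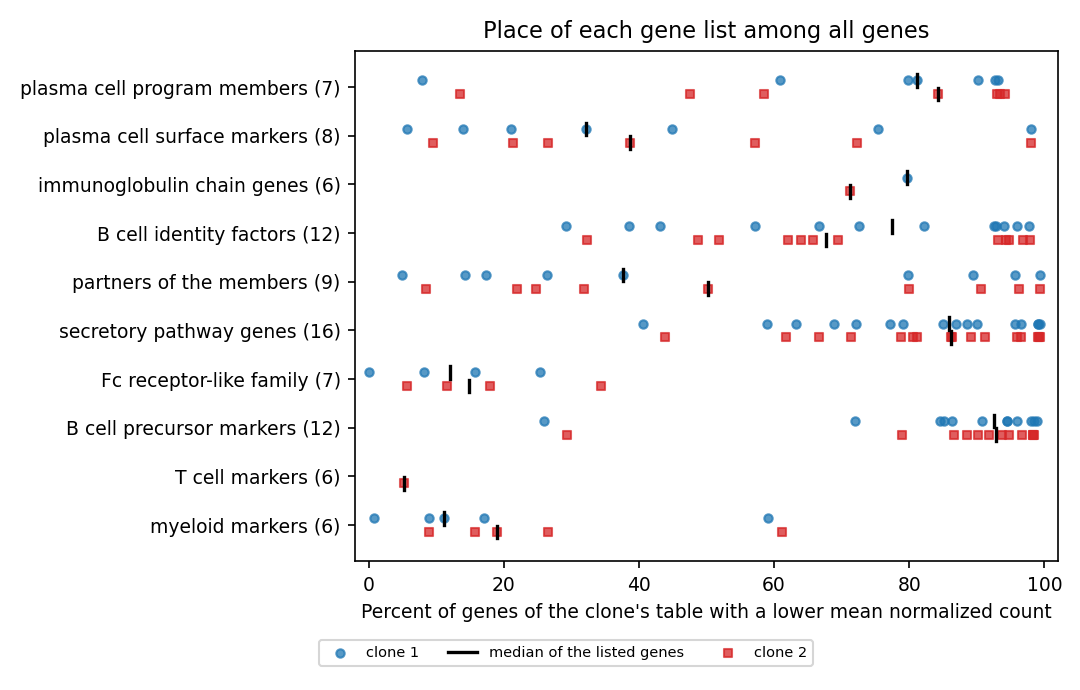
Percent of genes of a clone's table with a lower mean normalized count, for each gene of each list in clone 1 (blue circles) and clone 2 (red squares), with black bars at the median of the listed genes and the number of genes in a list in parentheses. The plasma cell program genes had medians of 81.1% and 84.3%, near those of the secretory pathway genes (86% and 86.2%) and above those of the plasma cell surface markers (32.1% and 38.6%).

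The B cell identity factors, some of which plasma cells turn down, were all listed (12 of 12), with medians of 1327 in clone 1 and 1010 in clone 2. TCF3, a helix-loop-helix factor of early B cells, had 8166 and 10355, EBF1 5048 and 7457, and PAX5 3806 and 4990. ETS1 had 1603 and 1087, a log2 difference of -0.93. IRF8, a relative of IRF4 and singled out after its values were seen, had 212.3 and 485, a difference of 0.83. None of the 12 was beyond 2-fold relative to the median gene.

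Factors that act with the 7 genes were listed in 9 of 9 cases, with medians of 201.7 and 448.8. HSP90B1 (GRP94), the chaperone with which MZB1 works, had 18006 and 21845, and IKZF1 (Ikaros) 4730 and 6300. IKZF3 (Aiolos), a factor of later B cells, had 16.1 and 36.5, a log2 difference of 0.82. IKZF1 was above 95.7% and 96.2% of the genes and IKZF3 above 14.2% and 24.7%. Of the 9 lists set beside the plasma cell program genes, none held a gene beyond 2-fold relative to the median gene. Without the scaling 4 of their genes were more than 2-fold higher in clone 2, namely IRF8, POU2F2, IKZF3 and CD33, at log2 differences of 1.19, 1.15, 1.18 and 1.07.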

How the data were processed

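RNA-seq of 12 RCH-ACV libraries (4 groups of 3) was mapped to groups from the labels. The authors made the values from stranded mRNA libraries, and the submitters' processing notes list, with no role or order, FastQC 0.10.1, Picard 1.107, BWA 0.6.2-r126, BWA 0.7.7-r441, DESeq2, bedtools 2.19.0, SAMtools and the genome build hg19. Which annotation, counting tool and strand mode were applied is not given in the sources used here, so overlapping and antisense genes are uncertain. Of each of the 2 deposited tables a single column was used, a signal: the mean over a clone's 6 libraries of counts divided by size factors by the authors. The other 7 columns of values hold the authors' comparison (fold change, its error, statistic, p-values, direction) and were not used.

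Computed here were the percent of genes with a lower mean, the mean per 1000 bases (longest protein-coding transcript of a gene in GENCODE 29, found for 85.1% of 16874 symbols), and log2 ratios of the clones centred on the median of 15582 shared genes. A fold of 2 was the limit for counts. The ratio step was tested on simulated data with counting noise only, changes larger than the limit, and scoring of genes with a mean of at least 50. It checked the computation and says nothing about the spread between real libraries or clones. Python 3.11.15, pandas 2.3.3 and numpy 2.4.6 were used. Dates had replaced 21 and 22 symbols, and 2 genes sharing a symbol were left out of each table. The genes and lists were chosen with earlier results of these data known. Besides all 7 genes, the text names of each list the 3 genes with the highest mean, the gene with the largest ratio, and genes absent from 1 table.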

Additional observations from a re-analysis of the deposited data

How the results depend on the processing

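No paired analysis was possible because only means over all libraries of a clone were used, and for the same reason no replicate could be left out. The log2 differences between the clones kept their values when each table was scaled to its total or centred on genes with a mean of at least 50. Without scaling they were 0.44 for XBP1, 0.32 for IRF4, 0.14 for PRDM1, -1.90 for JCHAIN, 0.024 for FCRLA, 0.52 for POU2AF1 and 0.73 for MZB1, which is the removed shift of 0.37. A pseudocount of 10 gave -0.11 for PRDM1. The count of genes beyond 2-fold fell to 84 with a mean of at least 50 in both tables and to 167 with the pseudocount, and the count of lower genes to 36 and 69, and to 102 without scaling. Of the other lists 0 genes were beyond 2-fold, and 4 without scaling, a setting chosen for them after seeing the data. JCHAIN was the 1 plasma cell program gene beyond 2-fold under all of these.

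Among genes with a mean of at least 10, PRDM1, itself under 10, was above 0% in both clones, and in clone 2 JCHAIN was above 38.1% and FCRLA above 51.0%. Per length, IRF4 was above 84.5% of genes in clone 1 and 85.1% in clone 2, JCHAIN above 91.2% and 62.4%, FCRLA above 67.8% and 63.9%, MZB1 above 97.6% in clone 1 and PRDM1 above 7.54% in clone 2. With coding length, JCHAIN took place 2 and XBP1 place 3 in clone 1, at nearly equal levels, and JCHAIN place 5 and FCRLA place 6 in clone 2. With no division by length, XBP1 took place 1, IRF4 place 2, MZB1 place 3, POU2AF1 place 4 and JCHAIN place 5 in clone 1, and XBP1 place 1 and MZB1 place 2 in clone 2. Unknown depth per library leaves the error of every level unknown.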
